A study of Mus musculus with 2 samples.

Results

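Lymphocyte integrins and homing receptors are the surface proteins that hold T and NK cells in a tissue or let them pass through it, and 8 such genes of the 32285 listed were taken by symbol: Itga1, Itgae, Itga4, Itgal, Itgb7, S1pr1, Selplg and Cd44. All 8 symbols were found once in each library. Their RNA was read in leukocytes from tumours of mice that were either controls or had received motolimod, a small molecule that activates the RNA receptor TLR8. Each condition is 1 droplet library, for which the labels state 5 mice, and the digested tumours were enriched for cells that carry CD45. The labels give no strain, age, tumour model, dose or time, and do not say whether the mice were pooled. With 1 library per group there is no replicate check, no test was made, and every interval below is an exact 95% interval that covers counting error only.

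Integrins are pairs of an alpha and a beta chain that bind matrix or the surface of other cells. Itga1 encodes CD49a, a receptor for collagen, and Itgae encodes CD103, which pairs with the Itgb7 product and binds E-cadherin on epithelium. Itga4 encodes CD49d, which pairs with the Itgb1 product to bind VCAM-1 and fibronectin, or with the Itgb7 product to bind the mucosal addressin MAdCAM-1. Itgal encodes the alpha chain of LFA-1, which binds ICAM-1 and steadies the contact of a T cell with its target. S1pr1 encodes the sphingosine 1-phosphate receptor with which lymphocytes leave tissue, Selplg the selectin ligand PSGL-1, and Cd44 a receptor for hyaluronan that is high on antigen-experienced T cells. Itga1 and Itgae are used as marks of tissue-resident lymphocytes, and S1pr1 as a mark of cells able to recirculate.

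The control library held 127609378 UMIs (counted RNA molecules) over 8099 barcodes and the motolimod library 62057685 over 10037 barcodes. Cells were kept from 300 genes and 800 UMIs upward if mitochondrial genes gave no more than 10% of their UMIs, which left 7484 and 9314 cells with medians of 14055 and 3742.5 UMIs. Cells were gated on marker UMIs, none of them of the 8 genes, and cells with over 0.5% of their UMIs from genes of another lineage were left out. CD8 T cells numbered 204 in the control and 300 in the motolimod library, CD4 T cells 46 and 48, gamma-delta T cells 64 and 71, and NK cells 26 and 87. Levels are given as CPM, the UMIs of a gene per 1000000 UMIs summed over a gate, and these 3-prime-tag counts were compared between gates and not between genes. The libraries shared 113 barcodes, of which 1 was in a lymphocyte gate. Markers are given here for the CD8 T, gamma-delta T and NK gates. Cd8b1 had a UMI in 97.5% and 96.7% of CD8 T cells, which is no independent check because it helped define that gate. Of genes outside the gate, Nkg7 had a UMI in 100%, Ccl5 in 97.5% and Gzmk in 57.4% of control CD8 T cells. Cd163l1 had a UMI in 84.4% and 84.5% of gamma-delta T cells. In the gamma-delta gate Il17a had a UMI in 54.7% and 70.4% of cells, and Prf1 had a UMI in 69.2% and 85.1% of NK cells. The NK gate can also hold type 1 innate lymphoid cells.

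Median UMIs per cell differed between libraries within the gates, and this bears on every ratio below. The medians were 11763.5 and 6594 in CD8 T cells, 5693 and 6181.5 in CD4 T cells, 2703 and 3608 in gamma-delta T cells, and 6656 and 5417 in NK cells. Shares of cells with a UMI were therefore also taken after each cell was thinned to 1000 UMIs.

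Promoters of 3 of the genes are shown because these genes separate the lymphocyte gates in the counts that follow: Itga1 had no UMI and Itga4 few in gamma-delta T cells, and Itgb7 was higher there than in CD8 T cells. The RefSeq promoter table matched 4 of the 8 genes, the fourth being Cd44, and each window spans 250 to 11 bases before the annotated start in build GRCm38.p6. Itga1 is at chr13:115101975-115102214 on the minus strand, Itga4 at chr2:79255176-79255415 on the plus strand, and Itgb7 at chr15:102231946-102232185 on the minus strand. Capitals mark matches to TGNGGT, the core recognised by RUNX factors, or GGGCGG, a GC box, on either strand. None of the matches overlap.
Itga1: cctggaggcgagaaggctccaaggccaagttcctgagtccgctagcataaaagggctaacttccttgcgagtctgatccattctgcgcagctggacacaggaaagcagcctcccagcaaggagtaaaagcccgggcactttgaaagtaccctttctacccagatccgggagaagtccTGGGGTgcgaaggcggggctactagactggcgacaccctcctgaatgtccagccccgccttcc
Itga4: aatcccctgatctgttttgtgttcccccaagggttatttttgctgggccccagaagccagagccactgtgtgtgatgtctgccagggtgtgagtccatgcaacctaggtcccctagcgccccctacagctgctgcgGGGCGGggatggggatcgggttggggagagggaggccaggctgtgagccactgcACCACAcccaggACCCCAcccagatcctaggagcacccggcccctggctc
Itgb7: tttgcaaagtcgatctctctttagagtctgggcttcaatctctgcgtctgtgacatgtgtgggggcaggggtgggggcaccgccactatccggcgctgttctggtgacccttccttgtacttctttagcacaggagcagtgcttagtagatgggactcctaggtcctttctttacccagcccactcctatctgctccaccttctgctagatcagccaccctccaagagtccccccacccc
The Itga1 window held 1 TGNGGT and the Itga4 window 2 of them and 1 GGGCGG, while neither was found in the Itgb7 window. Of 32851 promoter windows of this length, 39.0% held TGNGGT and 31.3% held GGGCGG. A further motif that was searched for, AGATAA, was in 9.74% of them. It had 0 matches in each window shown and 1 in that of Cd44. A match of letters is a description of these windows.

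Itgae RNA was concentrated in gamma-delta T cells. In that gate its level was 211 CPM in the control library (41 UMIs, interval 151 to 286) and 199 CPM in the motolimod library (57 UMIs, 151 to 258). CD4 T cells followed with 39.2 CPM (16 UMIs, 22.4 to 63.6) and 18.5 CPM (7 UMIs, 7.42 to 38.0). CD8 T cells held only 2 UMIs in each library, which is 0.646 and 0.790 CPM, and NK cells 0 and 1 UMI. The gamma-delta level was thus far above the CD8 T level in both libraries, with a ratio of 326 (84.6 to 2780) in the control and 252 (66.7 to 2132) in the motolimod library, both over 2 UMIs in CD8 T cells. In macrophages, which served as a gate that should lack the gene, Itgae stood at 0.873 and 0.421 CPM, so the CD8 T values were at the background. Itgae lies on the plus strand of chromosome 11 (73090583 to 73147446, GENCODE annotation of mm10), and the small gene Haspin lies inside it on the opposite strand.

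Itga1, the other residency integrin, was not found in gamma-delta T cells. Over all gated cells, its levels in CD8 T, CD4 T and NK cells could not be told apart. It had 0 UMIs in the gamma-delta T cells of both libraries, in 64 and 71 cells, which allows a share of cells with a UMI of up to 4.69% and 4.23% at 3 counts, or 5.60% and 5.06% by the exact interval. CD8 T cells held 33 UMIs in the control library (10.7 CPM, 7.34 to 14.98) and 77 in the motolimod library (30.4 CPM, 24.0 to 38.0). Over all gated cells, the gamma-delta to CD8 T ratio was bounded at 1.88 in the control library, where the depth could not show a difference, and at 0.434 in the motolimod library. CD4 T cells held 1 and 10 UMIs (2.45 and 26.4 CPM) and NK cells 1 and 17 UMIs (3.44 and 30.4 CPM). The ratios to CD8 T cells in the motolimod library were 0.867 (0.400 to 1.68) for CD4 T and 1.001 (0.555 to 1.71) for NK cells, and the control intervals also included 1. No cell of the 4 gates had UMIs of both Itga1 and Itgae in either library. Cells with an Itga1 UMI numbered 27 and 47 in the CD8 T, 1 and 7 in the CD4 T and 1 and 9 in the NK gate. Those with an Itgae UMI numbered 2 and 1 in the CD8 T and 9 and 3 in the CD4 T gate. In the gamma-delta T gate they were 25 and 36, and in the NK gate 0 and 1. Every gate held few or no cells with the rarer gene, so the lack of cells with both cannot show that the genes exclude each other. Itga1 spans 148869 bases of chromosome 13 (114953096 to 115101964, minus strand). The annotation places 2 other protein-coding genes on the same strand within it, the short Pelo and the long Gm49395 (115035273 to 115101921), which has no level here, so reads from those stretches cannot be placed with certainty.

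Itga4 was the other gene that gamma-delta T cells nearly lacked. The gate held 6 UMIs in the control library (30.8 CPM, 11.3 to 67.1) and 2 in the motolimod library (6.99 CPM, 0.846 to 25.2). CD8 T cells stood at 129 CPM (117 to 143) and 168 CPM (153 to 185), and NK cells at 117 CPM (81.0 to 163) and 150.4 CPM (120.0 to 186). CD8 T and NK cells did not differ beyond their intervals in either library. CD4 T cells were lower than CD8 T cells in the control library, at 58.8 CPM (37.7 to 87.4), and overlapped them in the motolimod library at 132 CPM (97.9 to 174). After thinning, 13.7% and 16.1% of CD8 T cells had an Itga4 UMI, against 1.56% and 1.41% of gamma-delta T cells.

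Itgb7, the beta chain shared by the CD103 and CD49d pairs, was highest in gamma-delta T cells over all gated cells. It reached 616 CPM in the control library (120 UMIs, 511 to 737) and 419 CPM in the motolimod library (120 UMIs, 348 to 501). CD4 T cells came next with 245 CPM (199 to 298) and 295 CPM (243 to 355), then NK cells with 175 CPM (131 to 231) and 129 CPM (101 to 162). CD8 T cells were the lowest of the lymphocytes, at 36.5 CPM (30.1 to 43.9) and 96.8 CPM (85.0 to 109.7). The order was the same in both libraries, although the NK interval overlapped that of CD4 T cells in the control library. In the motolimod library the NK interval overlapped that of CD8 T cells, and the CD4 T interval that of gamma-delta T cells. Among motolimod cells of like depth, a lead of gamma-delta T over CD4 T cells could not be shown. The ratio was 1.24 (0.810 to 1.96) under 5000 UMIs and 0.817 (0.504 to 1.30) from 5000 to 15000. Among control cells under 5000 UMIs the ratio was 1.62, with an interval above 1. The thinned shares, given below, were higher in gamma-delta T than in CD4 T cells, with intervals that overlapped. Of the gamma-delta T cells with an Itgae UMI, 21 of 25 in the control and 27 of 36 in the motolimod library also had an Itgb7 UMI, and of the CD4 T cells 9 of 9 and 2 of 3. Itgb7 was also found in most cells without Itgae. Its share there was 69.2% in control gamma-delta T cells, and 73.0% and 75.6% in CD4 T cells. In the motolimod library both gates had Itgb7 less often in cells with Itgae than in those without. These counts therefore do not show that the 2 genes go together.

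Itgal differed less between gates. In the control library it stood at 121 CPM in CD8 T cells (109 to 134), 100.4 CPM in CD4 T cells (72.1 to 136), 127 CPM in NK cells (89.6 to 175) and 247 CPM in gamma-delta T cells (182 to 327). In the motolimod library the levels were 243 CPM (224 to 263), 214 CPM (170 to 265), 297 CPM (254 to 346) and 314 CPM (253 to 387). CD8 T, CD4 T and NK cells therefore could not be ordered in the control library, and only gamma-delta T cells stood above them.

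S1pr1 was low in every gate. Gamma-delta T cells held 12 UMIs in each library (61.6 CPM, 31.9 to 108, and 41.9 CPM, 21.7 to 73.2), and CD4 T cells 8 and 17 (19.6 and 44.8 CPM). CD8 T cells held 8 and 31 UMIs (2.59 and 12.2 CPM) and NK cells 2 and 7 (6.88 and 12.5 CPM).

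Selplg had a UMI in over 90% of the cells of every lymphocyte gate. Its level was 976 CPM (842 to 1125) and 835 CPM (733 to 948) in gamma-delta T cells and 616 CPM (529 to 713) and 827 CPM (754 to 906) in NK cells. In CD8 T cells it was 409.8 CPM (388 to 433) and 528 CPM (500.1 to 557), and in CD4 T cells 301 CPM (250.3 to 359) and 546 CPM (474 to 625). Gamma-delta T and NK cells could not be told apart in the motolimod library, and nor could CD8 T and CD4 T cells.

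Cd44 was highest among lymphocytes in gamma-delta T cells, at 308 CPM (235 to 397) and 273 CPM (215 to 340). NK cells had 158 and 120.0 CPM, CD4 T cells 125 and 139.8 CPM, and CD8 T cells 77.3 CPM (67.8 to 87.7) and 97.2 CPM (85.4 to 110.1). Neutrophils, a gate outside the lymphocytes, stood higher still at 591 and 664 CPM.

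**Figure D1:**
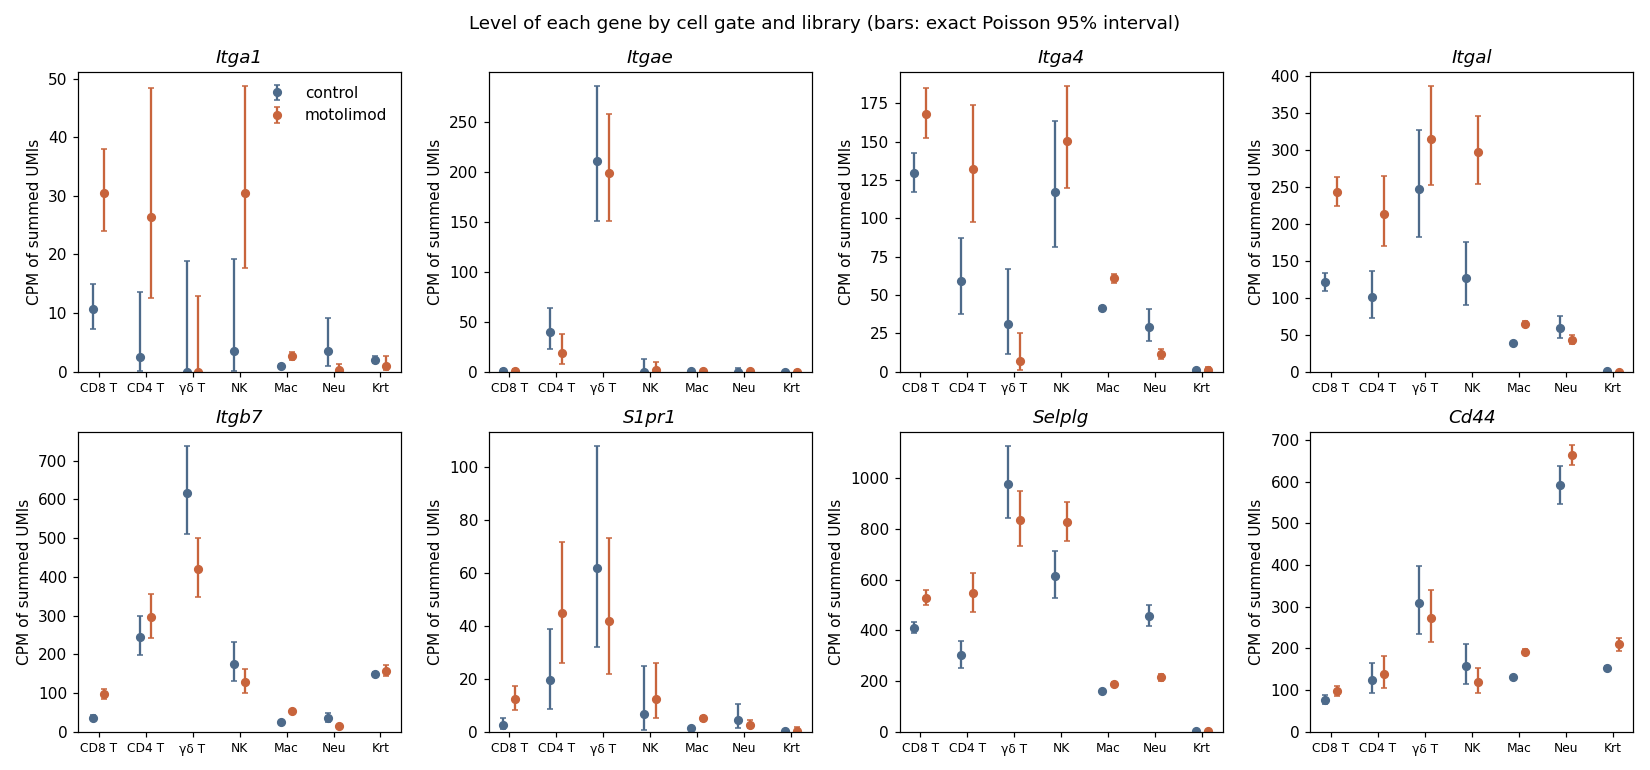
CPM of each gene (vertical axes, linear from 0) in CD8 T, CD4 T, gamma-delta T and NK cells and in macrophages (Mac), neutrophils (Neu) and cells with over 0.1% keratin UMIs (Krt), in the control and motolimod libraries, with exact Poisson 95% intervals. Itgae stands out in gamma-delta T cells at 211 and 199 CPM, where Itga1 is at 0 in both libraries.

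Several of these levels moved with the UMIs per cell, and gamma-delta T cells were the shallowest gate. Compared only among cells with under 5000 UMIs, a choice made after seeing the data, 60 and 55 gamma-delta T cells were set against 29 and 98 CD8 T cells. There Itgb7 was still 12.5 times as high in gamma-delta T cells in the control library (5.17 to 39.2) and 3.34 times in the motolimod library (2.35 to 4.78). Cd44 was 10.3 times (3.33 to 51.5) and 3.46 times as high (2.19 to 5.57). Itgae had 38 and 46 UMIs in gamma-delta T cells and 0 in CD8 T cells of both libraries, and Itga1 had 0 in gamma-delta T cells and 9 and 15 in CD8 T cells, which bounds its ratio at 0.301 and 0.554. Itga4 had 3 and 0 UMIs in gamma-delta T cells and 20 and 64 in CD8 T cells. In the 21 control CD4 T cells of this depth Itga1 had 0 UMIs, which bounds its ratio to CD8 T cells at 0.748. The motolimod ratio was 0.327 (0.00776 to 2.12).

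The gamma-delta to CD8 T ratios of the other genes had intervals that included 1 among these shallow cells. S1pr1, 23.8 times as high in gamma-delta T as in CD8 T cells over all control cells (8.96 to 67.2), was 1.02 times as high (0.369 to 3.05) below 5000 UMIs, and 1.16 times as high in the motolimod library (0.387 to 3.19). Selplg went from 2.38 times (2.03 to 2.78) to 1.20 times (0.918 to 1.58) in the control library and to 0.990 times (0.813 to 1.20) in the motolimod library. Itgal went to 1.19 times (0.704 to 2.05) and 1.34 times (0.976 to 1.84). Against CD4 T cells, some differences stayed below 5000 UMIs. Selplg was 1.93 times as high in gamma-delta T cells in the control library (1.33 to 2.86). In the motolimod library it was 0.979 times as high (0.729 to 1.33). Itgae was 3.82 and 4.66 times and Cd44 3.48 and 2.74 times as high in gamma-delta T cells, all with intervals above 1. The Itga4 ratio was 0.241 in the control (0.0374 to 1.24) and bounded at 0.205 in the motolimod library. Itgb7 was 7.68 times as high in CD4 T as in CD8 T cells in the control library (2.90 to 25.6). Its motolimod ratio was 2.68 (1.64 to 4.30).

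**Figure D2:**
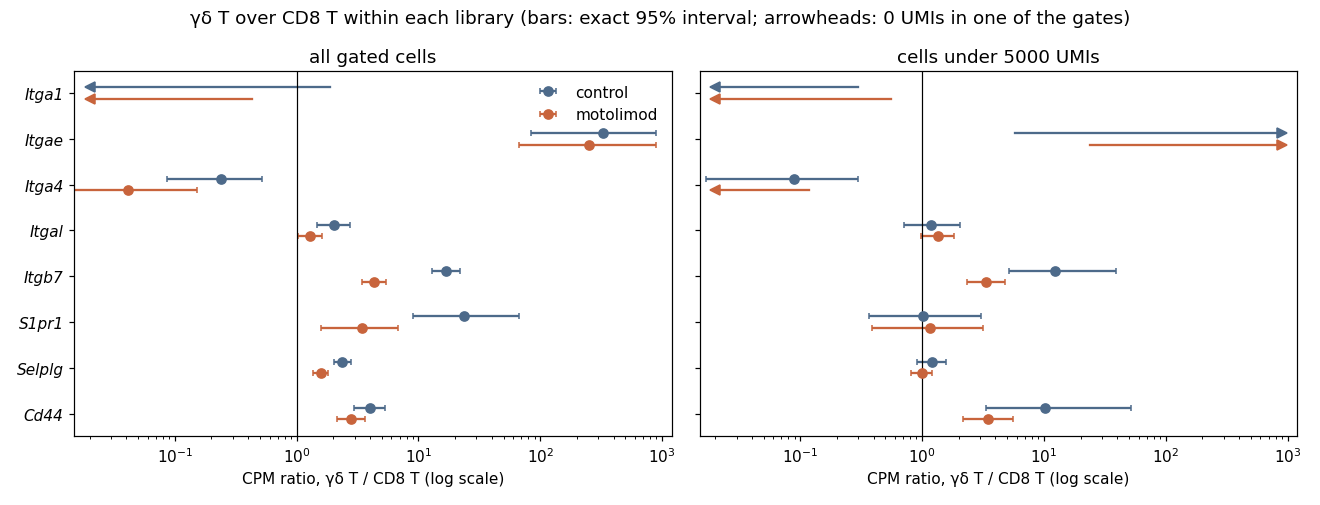
Ratio of CPM in gamma-delta T over CD8 T cells (horizontal axes, log scale) for each gene in each library, over all gated cells on the left and over cells under 5000 UMIs on the right, with exact 95% intervals; an arrowhead marks 0 UMIs in a gate, and intervals running past the axis are cut at its edge. On the right, the ratios of S1pr1, Selplg and Itgal have intervals that include 1 in both libraries, while those of Itgb7 and Cd44 lie above it.

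The thinned shares kept gamma-delta T cells highest for Itgae and Itgb7 and lowest among the lymphocytes for Itga4, while other neighbours in the order changed places, as for Itga4 between NK (15.4%) and CD8 T cells (13.7%) of the control library. After thinning, an Itgae UMI was found in 20.3% of control (11.3 to 32.2) and 16.9% of motolimod gamma-delta T cells (9.05 to 27.7), and in 1 of 3337 and 1 of 2280 macrophages. Itgb7 was found in 35.9% and 46.5% of gamma-delta T cells, 30.4% and 31.2% of CD4 T cells, 15.4% and 16.1% of NK cells, and 3.92% and 12.04% of CD8 T cells. The gamma-delta T intervals (24.3 to 48.9 and 34.5 to 58.7) overlapped those of CD4 T cells (17.7 to 45.8 and 18.7 to 46.3). In macrophages the Itgb7 share was 2.85% and 4.96%, so the control CD8 T share (1.71 to 7.58) could not be told from that of macrophages. The motolimod CD8 T share (8.58 to 16.3) lay above that of macrophages. Itga1 was found in 1.96% and 3.34% of CD8 T cells and in 0.120% and 0.219% of macrophages.

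**Figure D3:**
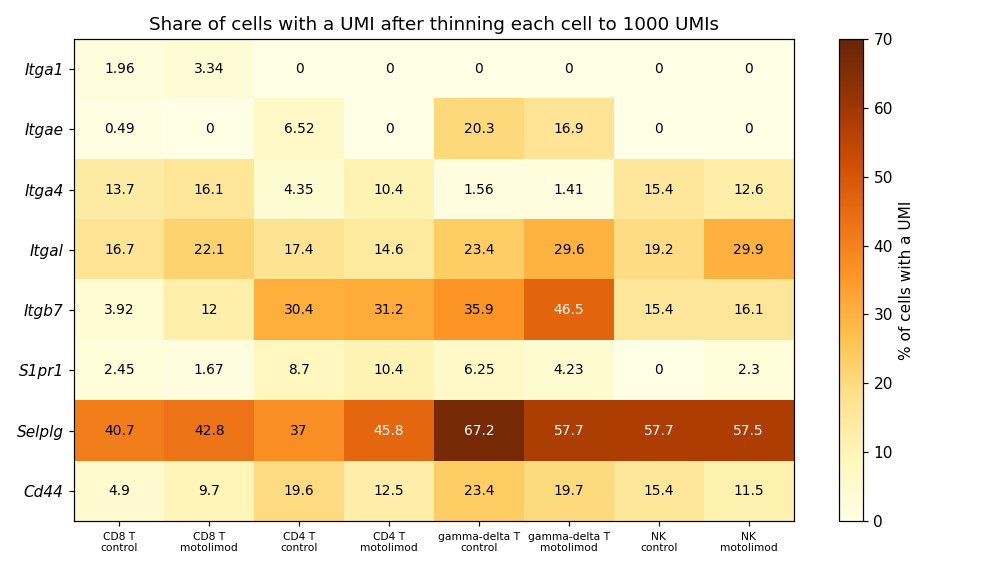
Share of cells, in percent, with a UMI of each gene after every cell was thinned to 1000 UMIs, for each gate and library. Itgb7 runs from 3.92% of control CD8 T cells to 46.5% of motolimod gamma-delta T cells.

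Within the CD4 T gate, Itgae UMIs were mostly in cells with Foxp3, the factor that defines regulatory T cells. Cells with a Foxp3 UMI made up 69.6% of the gate in the control library (32 cells, 54.2 to 82.3) and 20.8% in the motolimod library (10 cells, 10.5 to 35.0). They held 15 of the 16 Itgae UMIs in the control and 6 of the 7 in the motolimod library, which put Itgae at 44.6 and 79.5 CPM with Foxp3 and at 13.9 and 3.29 CPM without. The ratio was 3.21 in the control library (0.494 to 135), where these cells held 336345 of the gate's 408355 UMIs and the interval included 1, and 24.2 in the motolimod library (2.93 to 1111). Itga1 had 0 UMIs in the Foxp3-positive cells of both libraries, and 1 and 10 UMIs in the others. S1pr1 was lower in Foxp3-positive control cells, at 8.92 against 69.4 CPM (3 and 5 UMIs, ratio 0.128, 0.0199 to 0.660), and in the motolimod library stood at 26.5 against 49.4 CPM (ratio 0.537, 0.0596 to 2.31). The control cells without Foxp3 had a median of 2523.5 UMIs against 5905.5 with it.

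In CD8 T cells, Itgb7 and S1pr1 were lower in cells with a UMI of Pdcd1, the checkpoint receptor PD-1. Itgb7 stood at 28.8 CPM with and 90.5 CPM without Pdcd1 in the control library (ratio 0.318, 0.211 to 0.489), and at 71.6 and 151 CPM in the motolimod library (0.473, 0.365 to 0.613). S1pr1 stood at 1.11 and 12.9 CPM (3 and 5 UMIs, ratio 0.0857, 0.0133 to 0.441) and at 6.93 and 23.8 CPM (0.292, 0.129 to 0.633). Itgal and Itga4 did not differ beyond their intervals, with ratios of 1.16 and 0.939 for Itgal and 1.25 and 1.12 for Itga4. Pdcd1-positive cells made up 81.4% of control (75.3 to 86.5) and 61.7% of motolimod CD8 T cells (55.9 to 67.2), and had more UMIs per cell, with medians of 12680.5 against 8153 and 7346 against 5023. The part of that depth in these ratios was not tested.

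Cycling CD8 T cells, with a UMI of Mki67 or Top2a, had lower CPM of Itga1, S1pr1, Selplg and Itgal than the rest in both libraries. The Itga1 ratio was 0.186 (0.0791 to 0.407) in the control and 0.531 (0.323 to 0.859) in the motolimod library. S1pr1 had 0 UMIs in cycling and 8 in other control cells, and its motolimod ratio was 0.418 (0.176 to 0.928). The Selplg ratios were 0.671 (0.599 to 0.753) and 0.706 (0.633 to 0.788), and the Itgal ratios 0.650 (0.526 to 0.804) and 0.807 (0.687 to 0.948). Cycling cells were 50.5% of control and 36.7% of motolimod CD8 T cells, with medians of 16280 and 10889.5 UMIs against 7711 and 5275 in the others, and the part of that depth in the ratios was not tested.

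Motolimod was compared with control within each gate. A gene was called when its CPM ratio was at least 1.5 or at most the inverse, and only genes with at least 20 UMIs over both libraries of a gate were tested. In CD8 T cells 7 of the 8 genes were tested, Itgae not. Of these, 4 were higher, Itga1, Itgal, Itgb7 and S1pr1, where 17.8% of all 9956 genes tested were, and 0 were lower, where 10.6% were (28.5% in either direction). The median log2 ratio was 1.01 over the 7 genes and 0.08 over all genes tested. Itga1 rose from 10.7 to 30.4 CPM, a ratio of 2.85 (1.87 to 4.43), and Itgal from 121 to 243 CPM, a ratio of 2.01 (1.76 to 2.29). Itgb7 rose from 36.5 to 96.8 CPM, a ratio of 2.65 (2.11 to 3.34), and S1pr1 from 2.59 to 12.2 CPM, a ratio of 4.73 (2.13 to 11.9). Itga4, Selplg and Cd44 had ratios of 1.30 (1.13 to 1.495), 1.29 (1.19 to 1.39) and 1.26 (1.048 to 1.51).

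**Figure D4:**
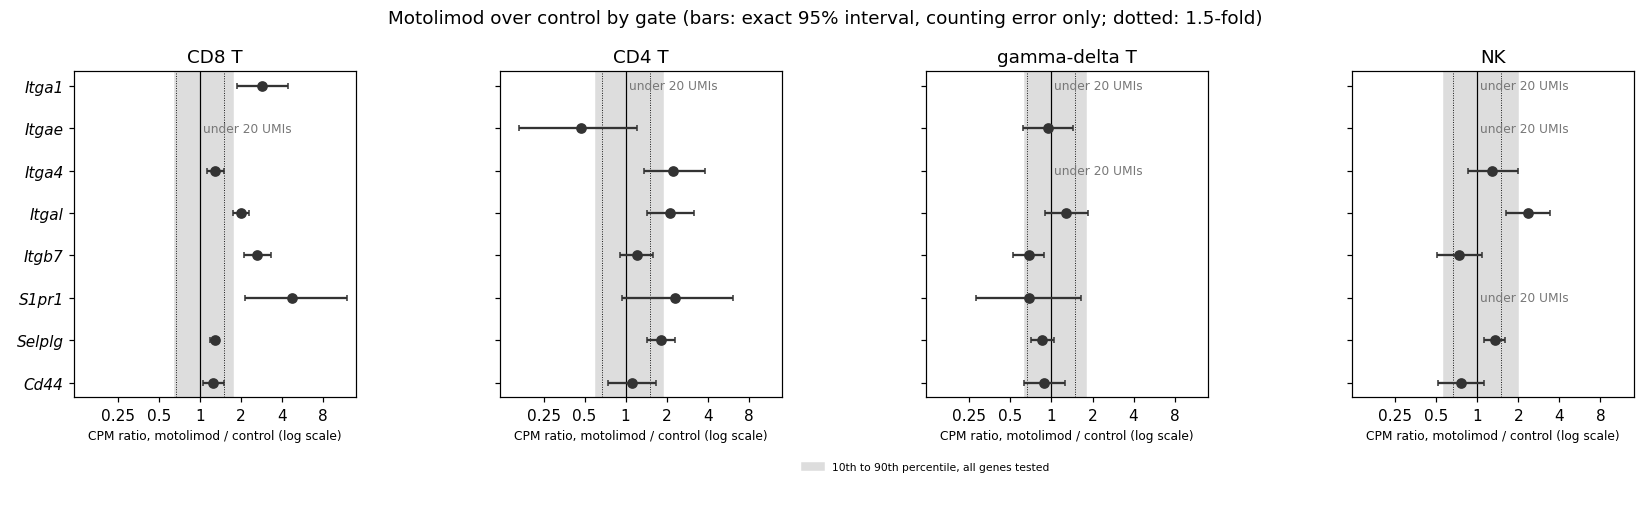
Ratio of motolimod to control CPM (horizontal axes, log scale) for each gene in the 4 lymphocyte gates, with exact 95% intervals; the grey band spans the 10th to 90th percentile of all genes tested in the gate and dotted lines mark 1.5-fold in either direction. In CD8 T cells the points for Itga1, Itgal, Itgb7 and S1pr1 lie right of the band, at 2.85, 2.01, 2.65 and 4.73.

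These ratios depended on the UMIs per cell to unequal degrees. Itgb7 was higher with motolimod in each band of depth, at 3.02 times the control (1.22 to 9.69) under 5000 UMIs, 2.53 times (1.74 to 3.77) from 5000 to 15000 and 2.21 times (1.55 to 3.16) at 15000 or more. The Itgal ratios were 1.26 (0.798 to 2.08), 1.46 (1.22 to 1.76) and 2.13 (1.69 to 2.67). Itga1 and S1pr1 turned below 5000 UMIs, where Itga1 was at 93.1 CPM in the control and 44.2 CPM in the motolimod library (9 and 15 UMIs, ratio 0.475, 0.195 to 1.23) and S1pr1 at 72.4 and 35.4 CPM (7 and 12 UMIs, ratio 0.489, 0.177 to 1.47). Above that depth Itga1 was 1.92 times (1.10 to 3.49) and 5.31 times as high (1.85 to 17.3), and S1pr1 had 1 and 12 UMIs in the middle band and 0 and 7 in the deepest. After thinning, the S1pr1 share was 2.45% of control and 1.67% of motolimod CD8 T cells, 5 cells in each. Itga1 was at 1.96% and 3.34%, Itgal at 16.7% and 22.1%, and Itgb7 at 3.92% and 12.04%. Of these, the Itgb7 intervals, given above, did not overlap. Of the genes not called, Cd44 went from 4.90% (2.38 to 8.83) to 9.70% (6.59 to 13.6) after thinning. Its ratios in the bands were 2.95 (0.919 to 15.1), 1.47 (1.08 to 2.01) and 1.24 (0.943 to 1.63). The thinned shares of Itga4 were 13.7% and 16.1%, and those of Selplg 40.7% and 42.8%.

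**Figure D5:**
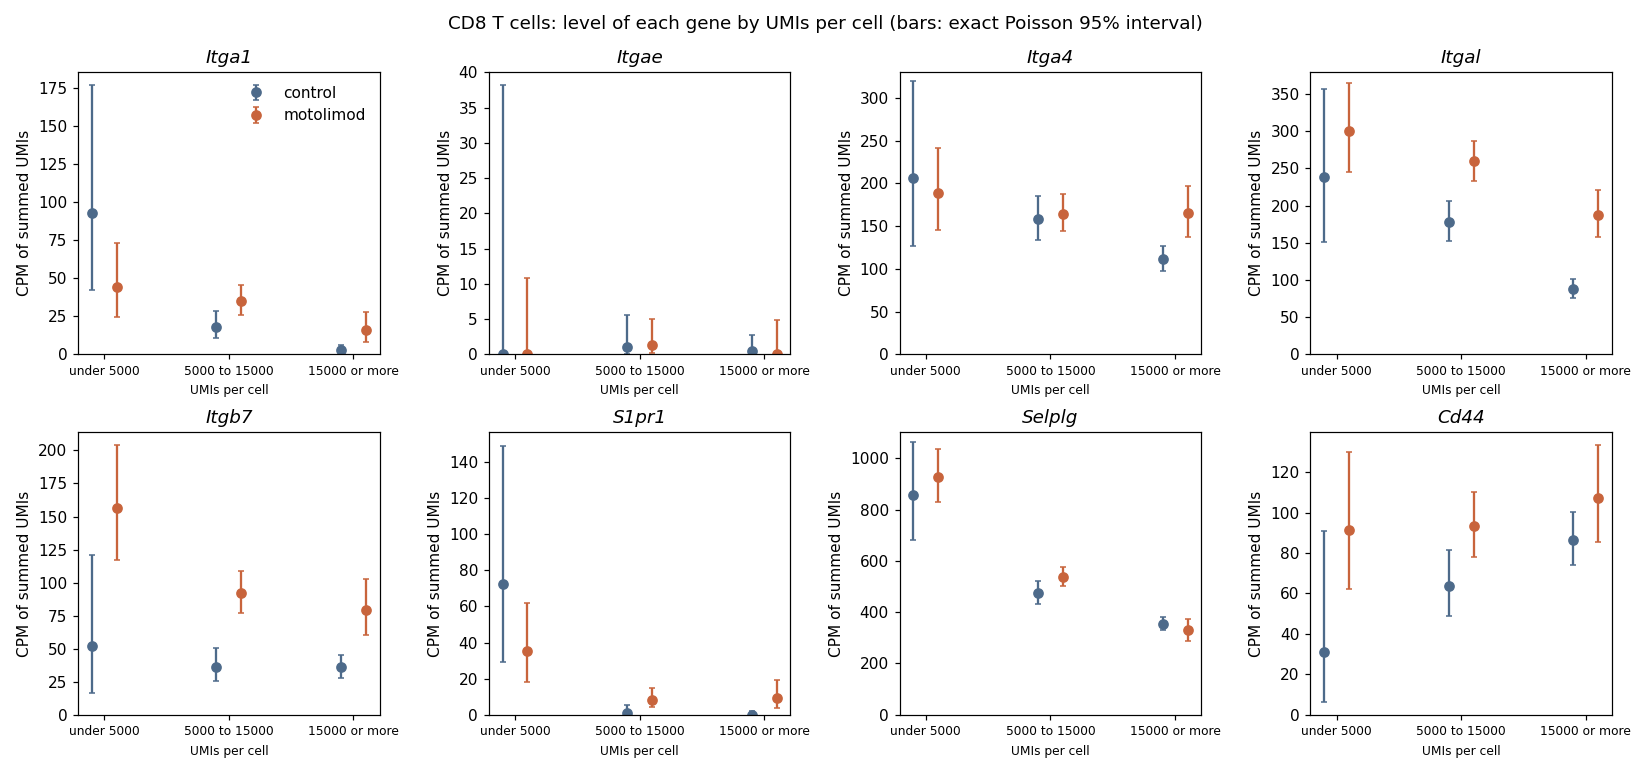
CPM of each gene (vertical axes, linear from 0) in CD8 T cells of under 5000, 5000 to 15000 and 15000 or more UMIs, in the control and motolimod libraries, with exact Poisson 95% intervals. Levels of Itga1, Itgal and Selplg fall from band to band as UMIs per cell rise in both libraries, S1pr1 is highest under 5000 UMIs, and Itgb7 is higher with motolimod in each band.

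Some of the deepest control cells carried RNA of another cell type. The 21 control CD8 T cells of over 30000 UMIs held 31.0% of the gate's UMIs and 496 of its 505 UMIs of the epithelial genes Krt8, Krt18 and Epcam, or 518 CPM, while the 183 others stood at 4.21 CPM. In the motolimod library 4 cells passed that depth, and the gate held 42 such UMIs. Without cells of that depth or with such a UMI, the same count of genes was called, 4 higher of 7. The motolimod CD8 T gate in turn held 288 UMIs of the collagen gene Col1a1 (114 CPM), against 5 in the control gate (1.62 CPM). Col4a1, another collagen gene, went the other way, with 19 UMIs in the motolimod and 56 in the control gate. The part of this RNA in the ratios was not tested. Cells with over 0.1% keratin UMIs themselves carried Itgb7 at 149 and 157 CPM and Cd44 at 153 and 209.9 CPM, and the 32 control cells with over 0.5% carried 237 and 215 CPM.

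Macrophages moved with the CD8 T cells for the same genes. There Itga1 went from 0.943 to 2.61 CPM (ratio 2.77, 1.89 to 4.06), Itgal from 39.0 to 64.7 CPM (1.66, 1.55 to 1.77), Itgb7 from 24.2 to 52.5 CPM (2.17, 2.01 to 2.34) and S1pr1 from 1.38 to 5.09 CPM (3.69, 2.76 to 4.97), so that 4 of the 8 genes were at least 1.5-fold higher where 11.8% of 13140 genes tested were. Itgae was lower in macrophages, from 0.873 to 0.421 CPM (0.482, 0.218 to 0.962), a direction in which 8.71% of genes were called. Median UMIs per macrophage were 16391 and 8467, a gap like that in CD8 T cells. In neutrophils, whose medians were 2039 and 2097.5, 5 of the genes were tested, and 0 were higher, where 22.3% of 7543 genes were, and 3 lower, where 19.3% were. There Itgb7 went from 34.6 to 13.9 CPM (0.403, 0.266 to 0.617), Itga4 from 29.3 to 11.3 CPM (0.386, 0.244 to 0.617) and Selplg from 457 to 215 CPM (0.472, 0.423 to 0.526). The part that depth, mixed droplets or free RNA has in the CD8 T ratios was not tested.

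In CD4 T cells 7 genes were tested, Itga1 not, with 4 higher, where 20.1% of 5010 genes tested were, and 1 lower, where 13.9% were (34.1% in either direction). The median log2 ratio was 0.86 over the 7 genes and 0.05 over all genes tested. Itga4 went from 58.8 to 132 CPM (2.24, 1.35 to 3.82), Itgal from 100.4 to 214 CPM (2.13, 1.44 to 3.18), Selplg from 301 to 546 CPM (1.81, 1.44 to 2.28) and S1pr1 from 19.6 to 44.8 CPM (2.29, 0.936 to 6.13). Itgae was the lower gene, from 39.2 to 18.5 CPM (0.471, 0.164 to 1.21), and its interval and that of S1pr1 included 1. The gate's share of Foxp3-positive cells differed between the libraries, and inside each class some of these ratios changed. Among Foxp3-negative cells, 14 and 38 in number, S1pr1 stood at 0.711 of the control (0.246 to 2.50), Itga4 at 1.90 (0.810 to 5.42), Itgal at 1.47 (0.770 to 3.07) and Selplg at 1.48 (0.984 to 2.32). Among the 32 and 10 Foxp3-positive cells Itgae was at 1.78 (0.567 to 4.86) and Itga4 at 0.495 (0.0557 to 2.07, 18 and 2 UMIs), both the other way from the whole gate, and Selplg at 1.76 (1.18 to 2.59). Neither class, with fewer than 20 cells in a library, could carry a call, and the part of the Foxp3 share in the gate's ratios was not tested.

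In gamma-delta T cells 6 genes were tested and 0 were called, where 17.3% of 3627 genes passed the threshold upward and 11.6% downward (28.8% in either direction). The median log2 ratio was -0.20 over the 6 genes and 0.03 over all genes tested. Itgb7 and S1pr1 came nearest the threshold with equal ratios. Itgb7 went from 616 to 419 CPM with 120 UMIs in each library (0.680, 0.524 to 0.884). Among cells under 5000 UMIs its ratio was 0.810 (0.604 to 1.08), and the thinned share went the other way, from 35.9% to 46.5%. Itgae had a ratio of 0.946 (0.622 to 1.45), Itgal 1.28 (0.889 to 1.85), Selplg 0.856 (0.704 to 1.04) and Cd44 0.884 (0.624 to 1.26). Each of these intervals included 1, as did that of S1pr1 (0.680, 0.280 to 1.66).

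In NK cells 5 genes were tested, with 1 higher, where 22.7% of 5074 genes were, and 0 lower, where 16.2% were (38.9% in either direction). Itgal went from 127 to 297 CPM (2.33, 1.63 to 3.43), and after thinning from 19.2% to 29.9% of cells. The control gate held 26 cells, of which the 4 with 15000 or more UMIs held 153119 of the 290613 UMIs, and below 5000 UMIs the Itgal ratio was 1.19 (0.651 to 2.34). That control gate also held 126 UMIs of the 3 epithelial genes (434 CPM) against 1 in the motolimod library (1.79 CPM). Itga4, Itgb7, Selplg and Cd44 had ratios of 1.29, 0.735, 1.34 and 0.758. Itga1 was under the minimum, with 1 and 17 UMIs (8.85, 1.39 to 370).

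Partners and regulators of the 8 genes were read from 6 lists, and each list is given by its count and its median log2 ratio, to be read against medians over all genes tested of 0.08 in CD8 T, 0.05 in CD4 T, 0.03 in gamma-delta T and 0.06 in NK cells. The shares of all genes called higher and lower, against which the counts are read, were 17.8% and 10.6%, 20.1% and 13.9%, 17.3% and 11.6%, and 22.7% and 16.2% in the same order of gates. Of 15 genes for integrin activation and linkage to the cytoskeleton, all 15 were tested in CD8 T cells and 5 were higher and 0 lower (median 0.42). They included Rasgrp2, an activator of the small GTPase Rap1, from 13.9 to 65.2 CPM (4.69, 3.33 to 6.72), and Rassf5, a Rap1 effector, from 45.9 to 76.6 CPM (1.67, 1.34 to 2.09). In CD4 T cells 7 of 14 were higher and 0 lower (median 0.62), among them Rassf5 (2.58, 1.38 to 5.08), Apbb1ip (2.05, 1.32 to 3.25) and Rasgrp1 (2.03, 1.12 to 3.83). In gamma-delta T cells 2 of 14 were higher and 1 lower (median 0.04), and in NK cells 3 of 14 higher and 0 lower (median 0.22), shares near the background. Of other leukocyte integrins and beta chains, 2 of 9 were higher and 0 lower in CD8 T cells (median 0.46), 2 of 5 higher and 1 lower in CD4 T cells (0.54), 1 of 6 higher and 0 lower in gamma-delta T cells (0.40), and 2 of 7 higher and 2 lower in NK cells (0.25). Itgb1, the beta chain that pairs with CD49a and CD49d, had ratios of 1.41 (1.21 to 1.65) in CD8 T cells and 2.25 (1.57 to 3.25) in CD4 T cells. Itgav, an alpha chain of receptors for vitronectin, was lower in CD4 T cells, from 169 to 65.9 CPM (0.390, 0.237 to 0.625).

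Of the genes for egress and lymph node homing, 8 of 10 tested were higher in CD8 T cells and 1 lower (median 1.26). Klf3 went from 12.3 to 37.9 CPM (3.09, 2.10 to 4.62) and Lef1 from 8.08 to 25.7 CPM (3.18, 1.98 to 5.26). Cd69, whose product draws the S1pr1 protein off the cell surface, went from 44.3 to 129.5 CPM (2.93, 2.39 to 3.60). S1pr1 itself was higher in summed CPM but not in its thinned share, as given above. The lower gene was Ccr7, the receptor for entry to lymph nodes, from 93.7 to 37.5 CPM (0.400, 0.314 to 0.506). In CD4 T cells 5 of 10 were higher and 1 lower (median 0.56), again Ccr7 (0.160, 0.0766 to 0.303), with Klf3 at 9.15 (3.93 to 26.1) and Tcf7 at 4.52 (1.66 to 15.4). In gamma-delta T cells 0 of 6 were higher and 1 lower (median -0.06), and in NK cells 5 of 8 were higher and 0 lower (median 0.80).

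Klf2 encodes the factor that drives S1pr1 transcription, and 21 of the 24 motolimod CD8 T cells with an S1pr1 UMI had a Klf2 UMI (87.5%, against 40.9% of the rest), while 4 of 7 did in the control library (57.1%, against 36.5%). In the other motolimod gates the Klf2 shares were 50% against 47.4% in CD4 T and 66.7% against 41.9% in gamma-delta T cells. In NK cells they were 100% against 68.3%. CD8 T cells with S1pr1 also had Cd69 more often, at 57.1% against 37.1% in the control and 62.5% against 41.3% with motolimod. Itga1 and S1pr1, marks of residency and of recirculation, were found together in 5 of the 7 control CD8 T cells with an S1pr1 UMI (71.4%, against 11.2% of the rest) and in 1 of the 24 motolimod cells (4.17%, against 16.7%). These counts are small, and the Klf2 and Itga1 pairs were picked out after their values were seen.

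Among receptors for tumour and tissue homing, 6 of 7 tested were higher and 1 lower in CD8 T cells (median 0.86). Cxcr3, the receptor for interferon-induced chemokines, went from 10.3 to 47.4 CPM (4.58, 3.08 to 6.997), Ccr2 from 35.2 to 103 CPM (2.93, 2.33 to 3.69) and Cxcr4 from 21.3 to 58.1 CPM (2.72, 2.02 to 3.70). Ccr8 fell from 21.3 to 7.90 CPM (0.370, 0.213 to 0.618). In CD4 T cells 3 of 7 were higher, led by Cxcr6 (6.10, 3.67 to 10.7), and 1 was lower, Ccr8 (0.157, 0.0865 to 0.266), a receptor known from regulatory T cells (median 0.42). In gamma-delta T cells 0 of 4 were called (median 0.12), and in NK cells 2 of 4 were higher and 0 lower (median 0.68). The residency list had 5 of 11 higher and 0 lower in CD8 T cells (median 0.49), 4 of 8 higher and 1 lower in CD4 T cells (0.62), 2 of 9 higher and 0 lower in gamma-delta T cells (0.20), and 3 of 8 higher and 0 lower in NK cells (0.42). For selectin ligand synthesis, the sugar and sulfate steps that make PSGL-1 bind, CD8 T cells had 2 of 8 higher and 1 lower (median 0.36), CD4 T cells 2 of 4 higher and 1 lower (0.13), gamma-delta T cells 0 of 3 higher and 1 lower (-0.39), and NK cells 0 of 5 called (-0.07). The lower gene in CD4 T cells was Fut7, which adds the fucose that selectins recognise, with 19 UMIs in the control and 2 in the motolimod library (0.113, 0.0128 to 0.470). Cd69 stands in both the egress and the residency list and Cxcr6 in both the tissue homing and the residency list. These ratios come from the same cells and share the depth gap described above.

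The ligands were looked for in the other gates of the same libraries. Icam1, the ligand of LFA-1, stood at 89.7 and 99.3 CPM in macrophages and at 100.2 and 222 CPM in neutrophils. Vcam1, the ligand of CD49d, stood at 132 CPM in control and 71.5 CPM in motolimod macrophages. Spp1, which encodes osteopontin, a further ligand of CD49d and CD44, stood at 209 and 149 CPM in macrophages and at 587 and 2817 CPM in neutrophils. It was also read in the CD8 T gate at 403 and 207 CPM and in the NK gate at 754 and 811 CPM. Cdh1, which encodes the E-cadherin bound by CD103, had 0 UMIs in 32 control cells with over 0.5% keratin UMIs. It had 125 and 43 UMIs in macrophages (2.18 and 1.81 CPM) and 8 and 0 in neutrophils. Madcam1 had 0 UMIs in every gate read. Of the collagen genes, Col1a1 stood at 20.3 and 11.7 CPM in macrophages and Col4a1 at 3.12 and 0.589 CPM. In the 32 control keratin cells they stood at 65.0 and 166 CPM. The cells were enriched for CD45, so blood vessel and stromal ligands are read here only as far as these gates hold them.

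For each gene, the 2 genes most like it were those with the highest Pearson correlation of log2(CPM + 10) over the 8 sums of gate and library, among 4494 candidate genes. Itgae was most like Sigirr (r = 0.988) and Znrf1 (0.985), and Itgb7 most like Kbtbd11 (0.983) and St3gal1 (0.964). Itga1 was most like Wipf1 (0.976) and Mgat2 (0.967), Itga4 most like Myl6 (0.971) and Mrpl58 (0.945), and Itgal most like Rps27 (0.992) and Ankrd44 (0.986). S1pr1 was most like Gm26740 (0.990) and Samhd1 (0.979), Selplg most like Clcf1 (0.980) and Midn (0.972), and Cd44 most like Clcn3 (0.985) and Ppp1r15a (0.983). The 8 points share 2 libraries and differ in depth, and the values describe these sums alone.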

How the data were processed

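The authors deposited whole UMI counts, not normalised, for each gene in each droplet barcode. Per the file headers they were made with Cell Ranger 7.1.0, while the submitters' processing notes name Cell Ranger 5.0.1 and build mm10. Whether intron reads were counted is not given in the sources used here.

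T cells had at least 2 UMIs of Cd3d, Cd3e and Cd3g together. CD8 T cells had Cd8a or Cd8b1 without Cd4 or Trdc, CD4 T cells Cd4 without Cd8a, Cd8b1 or Trdc, and gamma-delta T cells Trdc without Cd4 or Cd8b1. NK cells had 0 CD3 UMIs and at least 2 of Ncr1, Klrb1c, Klre1 and Klra8. The limit of 0.5% on other lineages removed 196 control and 157 motolimod CD8 T cells, 93 and 23 CD4 T cells, 25 and 18 gamma-delta T cells, and 51 and 49 NK cells; no doublet caller was run. CD3-positive cells in no gate (78 and 66) were set aside. Macrophages had over 0.5% C1q UMIs, and neutrophils over 2% S100a8 and S100a9 and at most 0.1% C1q UMIs; both had 0 CD3 UMIs. The planned keratin gate of 0.5% held 32 and 1 cells, so a gate of 0.1% (633 and 66 cells) was added after seeing the data.

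CPM have exact Poisson, ratios exact conditional binomial and shares Clopper-Pearson 95% intervals. A count of 0 allows up to 3 counts. Thinning to 1000 UMIs, with the seed fixed at 1, left out 1 gated cell. The calls and the thinning were checked on simulated data. Named genes are the 8 genes, the 2 most alike for each, and up to 4 of each list with the largest absolute log2 ratio in CD8 T and CD4 T cells. The 8 genes and the lists were chosen with earlier results of these data known. Alternatives covered the gates, the cell filter, the scaling, the fold, thinning and depth. Python 3.11.15, numpy 2.4.6, scipy 1.17.1, pandas 2.3.3 and matplotlib 3.10.9 were used.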

Additional observations from a re-analysis of the deposited data

Results flagged for a closer look

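Itgb7 moved in opposite directions in 2 gates. The motolimod to control ratio was 2.65 in CD8 T cells (36.5 to 96.8 CPM) and 0.680 in gamma-delta T cells (616 to 419 CPM), with intervals on opposite sides of 1. The difference between the gates was not tested, since each group has 1 library. In gamma-delta T cells the share of cells with an Itgb7 UMI after thinning to 1000 UMIs went from 35.9% to 46.5%, the other way from the summed level, whereas in CD8 T cells it was higher too (3.92% and 12.04%).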

How the results depend on the processing

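No paired analysis was possible because each group has 1 library. The count of genes called was 4 in CD8 T, 5 in CD4 T, 0 in gamma-delta T and 1 in NK cells, and it stayed within 1.5 times under the alternatives not named here. With no limit on other lineages it was 2 in gamma-delta T and 5 in NK cells. With the mean over cells it was 2 in CD8 T and 1 in gamma-delta T cells, with thinned shares 3 in CD4 T cells, and with the stricter cell filter 2 in NK cells. Of the alternatives chosen after seeing the data, cells of 5000 to 15000 UMIs gave 2 in CD8 T cells, cells with no Mki67 or Top2a UMI gave 3 in CD4 T and 2 in gamma-delta T cells, and leaving out cells of over 30000 UMIs or with a keratin UMI gave 1 in gamma-delta T cells. Among the genes called, the ratio changed direction for S1pr1 in CD8 T cells (0.682) and Itgal in CD4 T cells (0.839) with thinned shares, and for S1pr1 in CD4 T cells with the mean over cells (0.962). The cause was not tested. Of those not called, the ratios of Cd44 in CD4 T cells, Itgae, Itgb7, Selplg and Cd44 in gamma-delta T cells, and Itga4, Itgb7, Selplg and Cd44 in NK cells also crossed 1 under some alternative, for example Itgb7 in gamma-delta T cells with thinned shares (1.29) and in NK cells with no limit on other lineages (1.70). Over 12 alternatives, the Itgb7 ratio in CD8 T cells ran from 2.09 to 4.30 and that of Itgal from 1.32 to 2.09. Cells of 5000 to 15000 UMIs were too few for CD4 T, gamma-delta T and NK cells, and cells with no Mki67 or Top2a UMI for NK cells, under the minimum of 20 cells. The share expected from thinning lay within the interval of all 64 drawn shares.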
